A study of Caenorhabditis elegans with 6 samples.

Results

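The *nlp-29* group comprises small secreted peptides of the *Caenorhabditis elegans* epidermis, and 10 genes were taken as its members by their symbols, namely *nlp-24* to *nlp-31*, *nlp-33* and *nlp-34*, out of 47157 gene IDs in the deposited tables. All 10 were detected in every library, and all 10 passed the filter on low values (1 CPM, a library-scaled read count, in 3 or more libraries). *nlp-34* and *nlp-30* reached that minimum in 2 N2 libraries and so passed only with those of the mutant. The libraries came from whole young adults of 2 strains, with 3 libraries from wild-type N2 animals and 3 from *blmp-1(s71)* mutants, a strain that carries a mutation in the gene for the zinc finger transcription factor BLMP-1. Both strains were synchronized as first-stage larvae after bleaching and raised on NGM plates, and no infection, wounding or osmotic treatment is named for either. The labels do not describe the s71 lesion, and they call the libraries biological replicates without saying how the cultures were kept apart. The question is how the mutation bears on the transcript levels of these peptides under these growth conditions.

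The members encode short precursors, with annotated coding sequences of 59 to 90 codons, from which glycine- and aromatic-rich peptides are made. *nlp-29* is the usual reporter of the epidermal innate immune response of the worm: its transcription rises after infection by the fungus *Drechmeria coniospora*, after wounding and under osmotic stress. In the epidermis the receptor DCAR-1 and a G protein act through protein kinase C and a MAP kinase cascade on the STAT-like factor STA-2, while loss of the furrow collagens of the cuticle also switches the peptides on. Despite the neuropeptide-like name, these genes are mainly known as antimicrobial peptide genes of the epidermis.

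All 10 members lie on chromosome V in the WBcel235 annotation, and each has 1 annotated transcript with 2 exons. *nlp-34*, *nlp-31*, *nlp-30*, *nlp-29*, *nlp-28* and *nlp-27* follow each other in this order from 3978825 to 3989770, a span of 10.9 kb that holds 6 annotated genes, all of them members. *nlp-34* (3978825 to 3979134) is on the minus strand and the other five are on the plus strand: *nlp-31* (3980055 to 3980622), *nlp-30* (3981980 to 3982741), *nlp-29* (3984425 to 3984847), *nlp-28* (3987900 to 3988316) and *nlp-27* (3989378 to 3989770). The remaining members stand elsewhere on the plus strand: *nlp-33* at 11147346 to 11147737, *nlp-24* at 11616376 to 11616828, *nlp-25* at 19606180 to 19608419 and *nlp-26* at 19613461 to 19614534. The clustered genes are related copies, and how reads matching several copies were counted is not given in the sources used here, so the split of reads among them is uncertain.

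Libraries held 5255125 to 15218178 reads on genes, and the group took 1485 to 10509 of them. Both libraries numbered 1 had the fewest reads and the most ribosomal RNA (4.10% in N2 and 4.69% in the mutant, with 0.866% to 1.32% elsewhere). The targeted gene, *blmp-1*, was read in every library, at 12.1 ± 2.20 CPM in N2 and 14.5 ± 6.87 CPM in the mutant (SD, n = 3, log2 fold change 0.16, SE 0.32, limma adjusted p = 0.697). Here and below a level is CPM (reads scaled to the library's total on genes) divided by a TMM factor between libraries, and a log2 fold change is mutant over wild type on log2(CPM + 1), where the added 1 shrinks the change of genes at low CPM. In whole animals, fewer cells of a type and less RNA per cell cannot be told apart.

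Of the 10 members, 5 rose in the mutant, namely *nlp-34*, *nlp-30*, *nlp-29*, *nlp-25* and *nlp-31*, by 1.495 to 3.14 on the log2 scale. The falls of *nlp-24* and *nlp-26* came to 0.72 and 0.73, and *nlp-27*, *nlp-28* and *nlp-33* did not pass the test. Each call is a limma adjusted p (Benjamini-Hochberg over 13756 genes) under 0.05, a threshold that 8.84% of all tested genes passed upward and 13.4% passed downward. *nlp-34* and *nlp-30* entered the test only with the mutant libraries, where they were high, so their calls add nothing to that reading; of the other 8 members 3 rose and 2 fell. The median log2 fold change was 0.07 over all tested genes and 0.97 over the 10 members, where *nlp-34* and *nlp-30* are included and raise it. The same 7 members, again with *nlp-34* and *nlp-30* among them, had no overlap between the groups, which held for 48.6% of all tested genes. Without both libraries numbered 1, 2 members rose, *nlp-34* and *nlp-29*, and none fell by limma, where 0.824% and 0.122% of tested genes did; at an unadjusted p under 0.05, 2 members were lower, as were 15.9% of tested genes. Calls also hung on single libraries. Without mutant library 1 the 1 member that rose was *nlp-34* (background 0.211%), so this count adds nothing either. Without mutant library 2, 0 members rose (background 0.189%). At an unadjusted limma p under 0.05, 5 members were then higher, as were 9.57% of tested genes. Without N2 library 3, 3 members rose, with *nlp-34* among them (background 1.55%). Without mutant library 3, 6 rose, with *nlp-34* and *nlp-30* among them (background 13.9%).

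**Figure D1:**
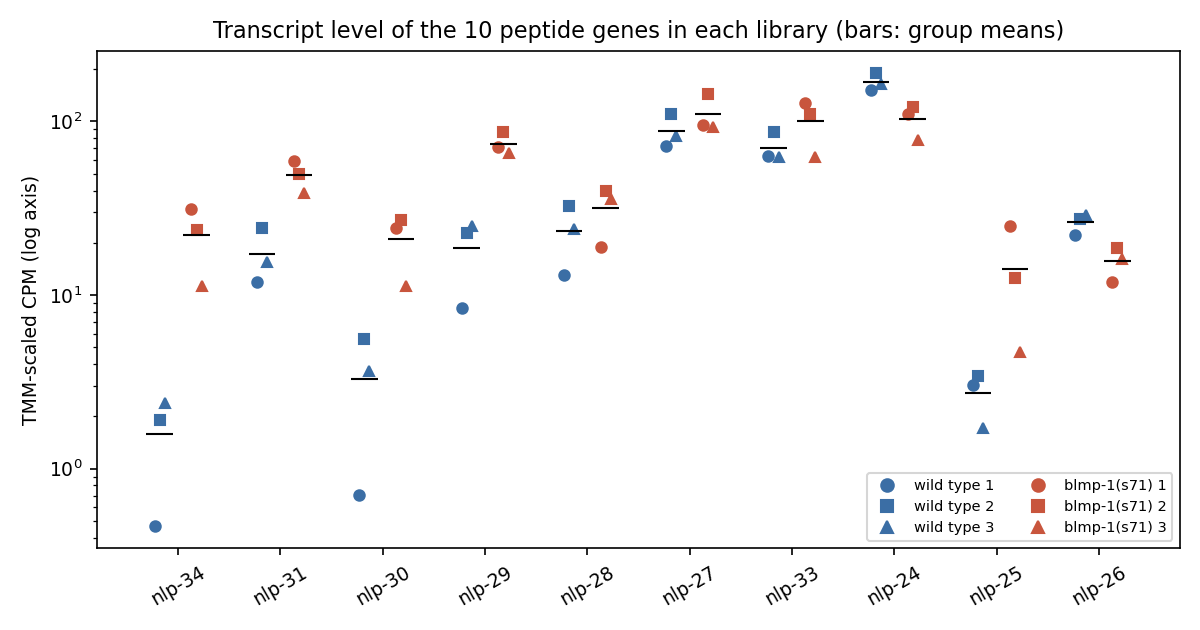
TMM-scaled CPM (log axis) of each of the 10 peptide genes in the 3 N2 libraries (blue) and the 3 blmp-1(s71) libraries (red), with a symbol for each library number and a bar at each group mean. The groups are apart for nlp-34, nlp-31, nlp-30, nlp-29 and nlp-25 (mutant higher) and for nlp-24 and nlp-26 (mutant lower), and they overlap for nlp-28, nlp-27 and nlp-33.

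*nlp-34*, the outermost gene of the cluster, had the largest change. Its levels were 0.468, 1.90 and 2.38 CPM in N2 libraries 1 to 3 and 31.5, 23.7 and 11.2 CPM in mutant libraries 1 to 3. Every mutant library lay above every N2 library, and the mutant libraries spread widely, with library 3 lowest. The wild-type values rest on 2, 25 and 32 reads, and for the 2 reads the 95% exact Poisson interval was 0.0567 to 1.69 CPM, which covers counting error only. Its log2 fold change was 3.14 (SE 0.42, limma adjusted p = 0.00826). It remained called with 5 of the 6 libraries left out in turn and was lost without mutant library 2 (log2 fold change 3.01, limma adjusted p = 0.0812).

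*nlp-29* itself was read at 8.43, 22.7 and 24.997 CPM in the N2 libraries and at 70.99, 86.6 and 66.1 CPM in mutant libraries 1 to 3. Values in the mutant were close to each other, whereas N2 library 1 lay below the others. The group means were 18.7 ± 8.99 CPM and 74.6 ± 10.7 CPM (SD, n = 3), a ratio of 3.98, with a log2 change of 2.06 (SE 0.36, limma adjusted p = 0.0254). Omitting N2 library 1 gave 1.69 (limma adjusted p = 0.00681). Significance was lost without mutant library 1 (2.04, limma adjusted p = 0.0710) and without mutant library 2 (1.95, limma adjusted p = 0.159), with little change in size.

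*nlp-30*, a related peptide gene next to *nlp-29*, was scarce in N2, at 0.702, 5.55 and 3.65 CPM, the first of these from 3 reads with an exact Poisson interval of 0.145 to 2.05 CPM. In the mutant libraries it stood at 24.3, 27.2 and 11.2 CPM, all above wild type, with library 3 again lowest. It rose by 2.47 on the log2 scale (SE 0.54, limma adjusted p = 0.0341). The call was lost without N2 library 3 (2.64, limma adjusted p = 0.0790), mutant library 1 (2.28, limma adjusted p = 0.110) or mutant library 2 (2.23, limma adjusted p = 0.159), and without N2 library 1 the log2 fold change was 1.99 (limma adjusted p = 0.0324). With no filter on low values it was not called (limma adjusted p = 0.0625).

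*nlp-31*, whose peptide is known for activity against microbes, was read in N2 at 11.9, 24.3 and 15.5 CPM, and stood at 59.5, 49.6 and 38.5 CPM in the mutant. The groups did not overlap. Its change of 1.495 on the log2 scale (SE 0.28, limma adjusted p = 0.0218) was the smallest of the 4 clustered genes that rose. Without mutant library 1 it was 1.29 (limma adjusted p = 0.0973) and without mutant library 2 it was 1.48 (limma adjusted p = 0.120), and in neither case was it called.

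The last genes of the cluster did not pass the test. *nlp-28* was read at 13.1, 32.6 and 23.96 CPM in N2 and at 18.98, 39.99 and 35.9 CPM in the mutant, which is 0.45 on the log2 scale (SE 0.37, limma adjusted p = 0.345). *nlp-27*, the most abundant gene of the cluster on the length-corrected TPM scale, was read at 72.3, 111 and 82.4 CPM in N2 and at 95.7, 144 and 93.3 CPM in the mutant, which is 0.32 on the log2 scale (SE 0.25, limma adjusted p = 0.325). For both genes the groups overlapped, and in each group the library numbered 2 was highest.

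**Figure D2:**
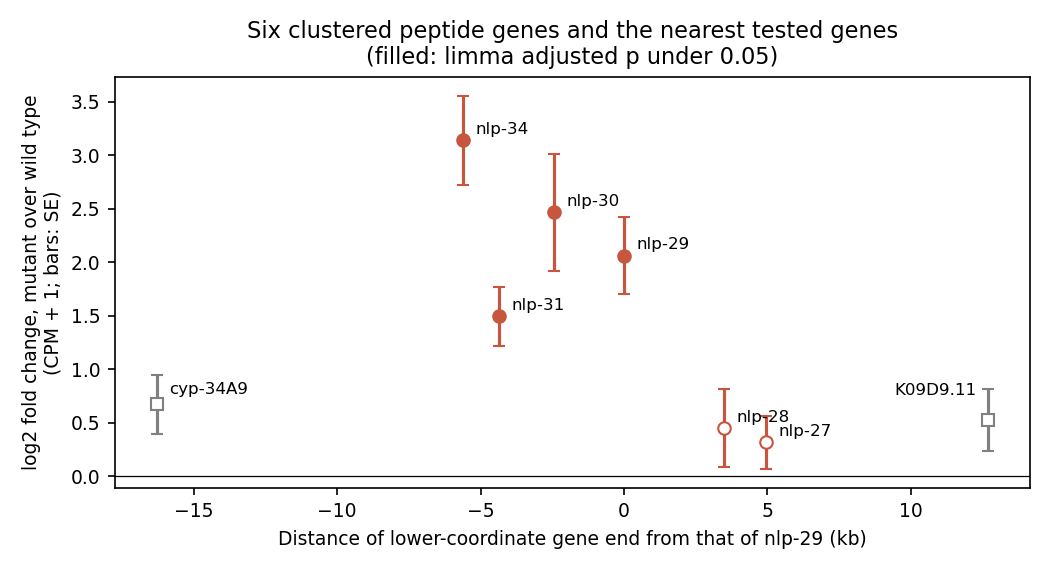
log2 fold change (mutant over wild type, with SE bars) of the 6 clustered peptide genes (circles) and of the nearest tested gene on either side (grey squares), by distance of the annotated lower-coordinate end from that of nlp-29 in kb; filled symbols passed limma's adjusted p of 0.05. The 4 genes from nlp-34 to nlp-29 lie between 1.495 and 3.14, and nlp-28 and nlp-27 lie at 0.45 and 0.32.

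Along the chromosome 4 neighbouring genes were called and the 2 beyond them were not, which does not by itself show that they differ. A ratio of reads between 2 genes within a library does not depend on the scaling between libraries, and 6 ratios of neighbouring members were compared, with exact two-sided permutation tests over the 6 libraries that cannot go below p = 0.1. The ratio of *nlp-29* to *nlp-28* was 0.643, 0.697 and 1.04 in the N2 libraries and 3.74, 2.17 and 1.84 in mutant libraries 1 to 3. These did not overlap, and the ratio was 3.17-fold higher in the mutant (log2 difference 1.67, exact permutation p = 0.1, adjusted over the 6 ratios 0.15). That p is the lowest the test can give, so it cannot pass 0.05 with these libraries. The ratio of *nlp-28* to *nlp-27* was 0.181, 0.295 and 0.291 in N2 and 0.198, 0.278 and 0.385 in the mutant. These values overlapped (exact permutation p = 0.7, adjusted 0.7), with a log2 difference of 0.15 that turned to -0.08 without N2 library 1 and to -0.09 without mutant library 3.

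Ratios among the genes that rose were compared by the same test, which cannot pass 0.05 with these libraries. The ratio of *nlp-34* to *nlp-31*, which are divergently transcribed neighbours, was 0.0392, 0.0781 and 0.154 in N2 and 0.530, 0.478 and 0.292 in the mutant, 5.39-fold higher with no overlap (exact permutation p = 0.1, adjusted 0.15). For *nlp-31* to *nlp-30* it was 17.0, 4.38 and 4.24 in N2 and 2.45, 1.82 and 3.43 in the mutant, also apart (exact permutation p = 0.1, adjusted 0.15), and the log2 difference of -1.46 came to -0.80 without N2 library 1. *nlp-30* to *nlp-29* gave 0.0833, 0.244 and 0.146 in N2 and 0.343, 0.314 and 0.170 in the mutant, and these groups overlapped (exact permutation p = 0.2, adjusted 0.24).

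**Figure D3:**
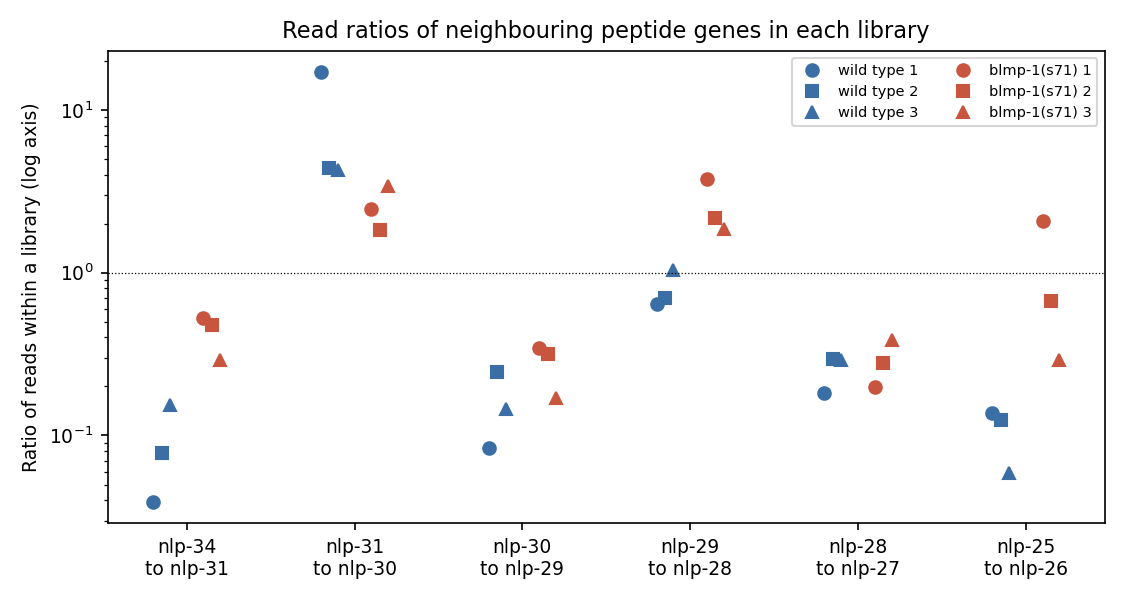
Ratio of reads of 2 neighbouring peptide genes within each library (log axis) for 5 neighbouring pairs of the cluster and for nlp-25 to nlp-26; blue symbols are wild-type and red symbols blmp-1(s71) libraries. The groups are apart for nlp-34 to nlp-31, nlp-31 to nlp-30, nlp-29 to nlp-28 and nlp-25 to nlp-26, and overlap for nlp-30 to nlp-29 and nlp-28 to nlp-27.

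The nearest tested genes outside the cluster did not pass the test. *cyp-34A9*, a cytochrome P450 gene whose lower-coordinate end lies 16.3 kb below that of *nlp-29*, went from 5.04 ± 1.65 to 8.43 ± 1.07 CPM (log2 fold change 0.67, SE 0.27, limma adjusted p = 0.0820). *K09D9.11*, an annotated pseudogene whose lower-coordinate end lies 12.7 kb above it, went from 1.53 ± 0.714 to 2.62 ± 0.824 CPM (log2 fold change 0.53, SE 0.29, limma adjusted p = 0.172). *nlp-32*, a further gene of the same numbered series that lies on another chromosome and is no member, had at most 1 read in any library and was not tested.

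*nlp-25* and *nlp-26*, which stand close together near the end of the chromosome, were called in opposite directions. *nlp-25* was read at 3.04, 3.42 and 1.71 CPM in N2 and at 24.9, 12.6 and 4.68 CPM in the mutant. The groups did not overlap, but the mutant values covered a wide range and library 3 lay near wild type. It rose by 1.79 (SE 0.51, limma adjusted p = 0.0446), and with libraries left out it was called in 1 of 6 fits, without mutant library 3 (2.36, limma adjusted p = 0.00322). Without mutant library 1 the log2 fold change was 1.21 (limma adjusted p = 0.110). On the deposited TPM it was not called (limma adjusted p = 0.0561), nor was it with no filter on low values (limma adjusted p = 0.0652).

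*nlp-26* went the other way, from 22.2, 27.5 and 29.1 CPM in N2 to 11.9, 18.7 and 16.2 CPM in the mutant, with no overlap. It fell by 0.73 (SE 0.24, limma adjusted p = 0.0497), at the edge of the threshold. Of the 6 fits that omitted a library, 1 called it (without mutant library 3, limma adjusted p = 0.0478), and without mutant library 2 the limma adjusted p was 0.159. Its last 29 bases overlap *Y43F8C.3* on the opposite strand, looked up after the values were seen, which went from 9.28 ± 1.11 to 14.5 ± 1.23 CPM (limma adjusted p = 0.0745). The use of strand is not given in the sources used here, so reads in the overlap cannot be assigned.

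Free of the scaling, the ratio of *nlp-25* to *nlp-26* was 0.137, 0.124 and 0.0588 in N2 and 2.08, 0.672 and 0.289 in the mutant. All mutant libraries lay above all N2 libraries, a 7.39-fold difference at the lowest p the test can give (exact permutation p = 0.1, adjusted 0.15). Its log2 difference of 2.89 came to 2.14 without mutant library 1 and to 3.56 without mutant library 3. *grsp-1*, which is annotated between the pair and was looked up after the values were seen, varied within both groups, at 18.6 ± 20.4 and 19.3 ± 16.5 CPM (SD, n = 3, limma adjusted p = 0.858).

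*nlp-24*, described elsewhere as a source of opioid-like peptides in starved worms, was the most abundant member in N2 on the TPM scale. Its levels were 152, 189 and 164 CPM in N2 and 110, 120 and 77.8 CPM in the mutant. Every mutant library lay below every N2 library. It fell by 0.72 (SE 0.23, limma adjusted p = 0.0450), and no fit that left out 1 of the 6 libraries called it: its limma adjusted p then ran from 0.0659 without N2 library 1 to 0.159 without mutant library 2. The falls of *nlp-24* and *nlp-26* also depended on scale: with library size alone they were 0.40 and 0.41 (limma adjusted p = 0.266 and 0.300), and with upper-quartile scaling 0.59 and 0.60 (limma adjusted p = 0.0692 and 0.0523). Neither was called on the deposited TPM, with no filter on low values or by edgeR with group as the only term. Both were called by DESeq2 (adjusted p = 0.0273 and 0.0312), and by limma and edgeR with an added term for the library number. The last 24 bases of *nlp-24* overlap *glb-15* on the opposite strand, which was read at 0.985 ± 0.281 CPM in N2 and 1.31 ± 0.483 CPM in the mutant.

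*nlp-33*, another abundant peptide gene, was read at 63.2, 86.6 and 62.3 CPM in N2 and at 127, 110 and 62.8 CPM in the mutant. Mutant libraries 1 and 2 lay above wild type and library 3 lay within it. Its change of 0.45 on the log2 scale (SE 0.28) did not pass (limma adjusted p = 0.214), and without mutant library 3 it was 0.75 (limma adjusted p = 0.0303).

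**Figure D4:**
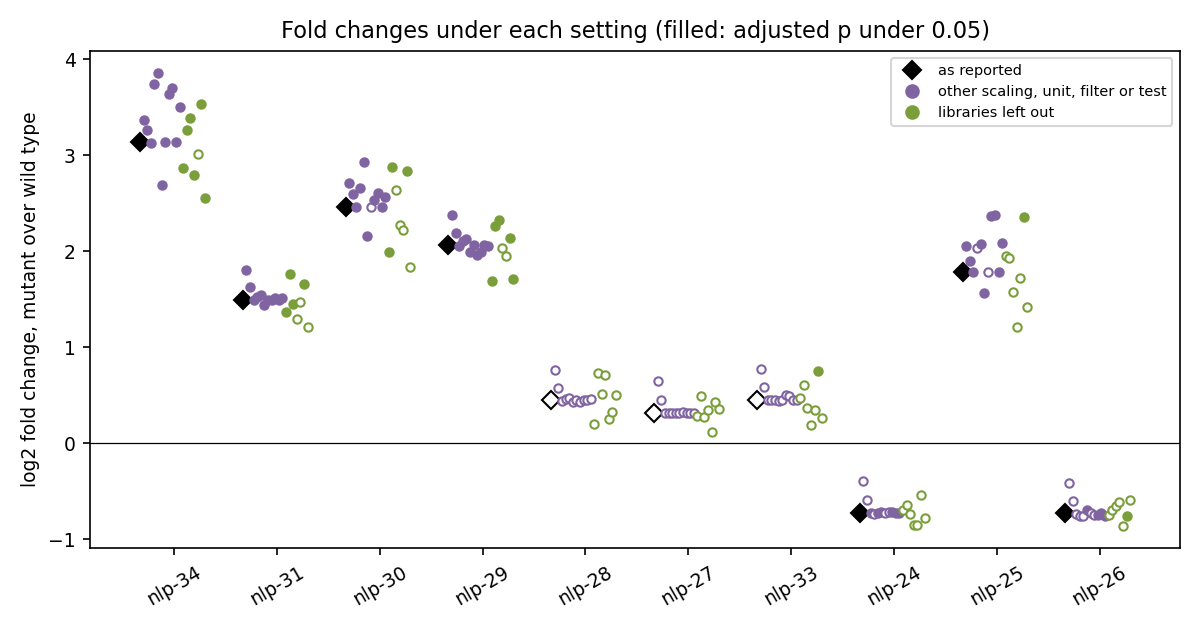
log2 fold change (mutant over wild type) of each peptide gene as reported (black diamonds), under other scalings, units, filters or tests (purple) and with libraries left out (green); filled symbols have an adjusted p under 0.05. No gene changes sign, nlp-34 is filled most often, and nlp-24 is open in every fit with a library left out.

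Per length, on the deposited TPM scale, the group's makeup shifted. In wild type the order of mean levels was *nlp-24* (421 ± 46.5 TPM), *nlp-27* (328 ± 71.7), *nlp-33* (236 ± 48.1), *nlp-28* (82.0 ± 33.3), *nlp-26* (79.3 ± 6.55), *nlp-29* (59.2 ± 26.3), *nlp-31* (44.9 ± 16.4), *nlp-25* (12.3 ± 4.47), *nlp-34* (7.20 ± 4.29) and *nlp-30* (5.35 ± 3.98 TPM, SD, n = 3). Ranges of neighbours in this order overlapped except between *nlp-33* and *nlp-28* and between *nlp-31* and *nlp-25*. In the mutant it was *nlp-27* (498 ± 140 TPM), *nlp-33* (403 ± 141), *nlp-24* (311 ± 75.3), *nlp-29* (290 ± 49.1), *nlp-31* (155 ± 35.9), *nlp-28* (135 ± 48.2), *nlp-34* (125 ± 59.3), *nlp-25* (76.1 ± 55.5), *nlp-26* (57.0 ± 13.03) and *nlp-30* (41.9 ± 17.9 TPM), and only *nlp-29* and *nlp-31* were neighbours with separate ranges. TPM were deposited without scaling between libraries, so these levels serve for the order within a group.

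As a share of the summed TPM of the 10 genes, *nlp-24* made up 36.3%, 30.7% and 32.99% in the N2 libraries and 15.02%, 14.9% and 14.6% in those of the mutant. *nlp-29* made up 2.59%, 4.75% and 6.48% in N2 and 12.4%, 13.8% and 16.0% in the mutant. Neither share overlapped between the groups. *nlp-27* took 25.6%, 26.6% and 24.7% in N2 and 19.3%, 26.4% and 26.03% in the mutant, where the groups overlapped. The summed TPM behind these shares was 1117, 1543 and 1166 in N2 and 2233, 2494 and 1553 in the mutant, not scaled between libraries. A lower share is therefore not an equal fall in a gene's own level. In scaled CPM the group's sum was 348, 504 and 410 in N2 and 575, 633 and 418 in the mutant, with mutant library 3 inside the wild-type range.

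The caenacins, a second family of small epidermal antimicrobial peptides, moved upward. Of 11 listed, 6 passed the filter on low values and all 6 of these rose (background 8.84%), and the rest had at most 10 reads in any library. Of the 6, *cnc-2* reached 1 CPM in 2 N2 libraries and *cnc-7* in 0, so both passed the filter only with the mutant libraries and their count supports nothing by itself. *cnc-2* rose by 2.66 (SE 0.28, limma adjusted p = 0.00128), *cnc-3* by 2.05 (SE 0.25, limma adjusted p = 0.00240), *cnc-7* by 1.87 (SE 0.26, limma adjusted p = 0.00522) and *cnc-4* by 2.50 (SE 0.38, limma adjusted p = 0.0150). *cnc-2* went from 1.64, 1.14 and 0.521 CPM in N2 to 11.7, 10.8 and 13.5 CPM in the mutant. Among the mutant libraries, *cnc-2*, *cnc-3* and *cnc-7* were not lowest in library 3. *cnc-4*, *cnc-8* and *cnc-10* were lowest there, as was every member of the *nlp-29* group that rose. *cnc-4* lost its call without mutant library 1 (2.16, limma adjusted p = 0.0627) and without mutant library 2 (2.36, limma adjusted p = 0.107).

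Of 16 genes of the epidermal signalling path that drives *nlp-29*, 4 rose (background 8.84%), 1 fell (background 13.4%) and 11 did not pass. Their median log2 fold change was 0.42 against 0.07 over all tested genes. At the top of the path the receptor gene *dcar-1* rose from 28.5 ± 7.87 to 60.3 ± 11.7 CPM (log2 fold change 1.08, SE 0.26, limma adjusted p = 0.0337). *tpa-1*, a protein kinase C, rose from 22.96 ± 3.81 to 40.96 ± 7.002 CPM (0.81, SE 0.23, limma adjusted p = 0.0360). *sta-2*, the STAT-like factor, rose from 8.13 ± 1.96 to 15.5 ± 3.30 CPM (0.86, SE 0.27, limma adjusted p = 0.0424), as did its partner *snf-12*, a transporter-like membrane protein named after its values were seen (0.97, SE 0.31, limma adjusted p = 0.0445). The gene that fell was *akir-1*, a nuclear cofactor needed for the induction of the peptides, from 127 ± 5.88 to 79.4 ± 12.4 CPM (-0.68, SE 0.21, limma adjusted p = 0.0412). Its call was lost with library size alone (-0.36, limma adjusted p = 0.261) and with upper-quartile scaling (-0.55, limma adjusted p = 0.0516). The MAP kinase genes *sek-1* and *pmk-1* had log2 fold changes of 0.10 and 0.03 (limma adjusted p = 0.724 and 0.936). With a library left out, *dcar-1*, *tpa-1*, *sta-2*, *snf-12* and *akir-1* were each called in 1 of 6 fits, without mutant library 3, and *dcar-1* had a limma adjusted p of 0.159 without mutant library 2. None of these 5 was called with no filter on low values (limma adjusted p from 0.0625 for *dcar-1* to 0.0760 for *snf-12*), and *tpa-1*, *sta-2* and *snf-12* were not called on the deposited TPM.

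Among 11 genes of the cuticle furrows and of the osmotic and damage response, 3 rose (background 8.84%), none fell and 8 did not pass by limma. At an unadjusted p under 0.05, 9 were higher, beside 2717 of 13756 tested genes. By edgeR 4 were called (1167 of 13756 tested genes higher) and by DESeq2 10 (1629 of 13742), none of them lower. Their median log2 fold change was 1.62. *osm-7* and *osm-11*, secreted proteins of the osmotic response, rose by 1.05 (SE 0.27, limma adjusted p = 0.0337) and 0.70 (SE 0.22, limma adjusted p = 0.0422), and the furrow collagen *dpy-2* rose by 1.86 (SE 0.52, limma adjusted p = 0.0445). The *dpy-2* and *osm-11* calls were lost on the deposited TPM (limma adjusted p = 0.0509 and 0.0504), and none of the 3 was called with no filter on low values (*dpy-2* at a limma adjusted p of 0.0639). All 11 had positive log2 fold changes. Of these, *dpy-3* and *osm-8* reached 1 CPM in 2 N2 libraries and passed the filter only with the mutant libraries. They add nothing to that count, and the median of the list includes them. In the mean over this list, the mutant libraries, in their numbered order, exceeded the N2 mean by 2.01, 1.496 and 0.67, while N2 library 3 lay at 0.63, so wild type and mutant nearly met. For the 10 peptide genes the corresponding means were 1.23, 1.33 and 0.66 in the mutant and -0.45, 0.37 and 0.08 in N2. With a library left out, *osm-11* was called in 0 of 6 fits, and *dpy-2* and *osm-7* in 1 and 2.

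**Figure D5:**
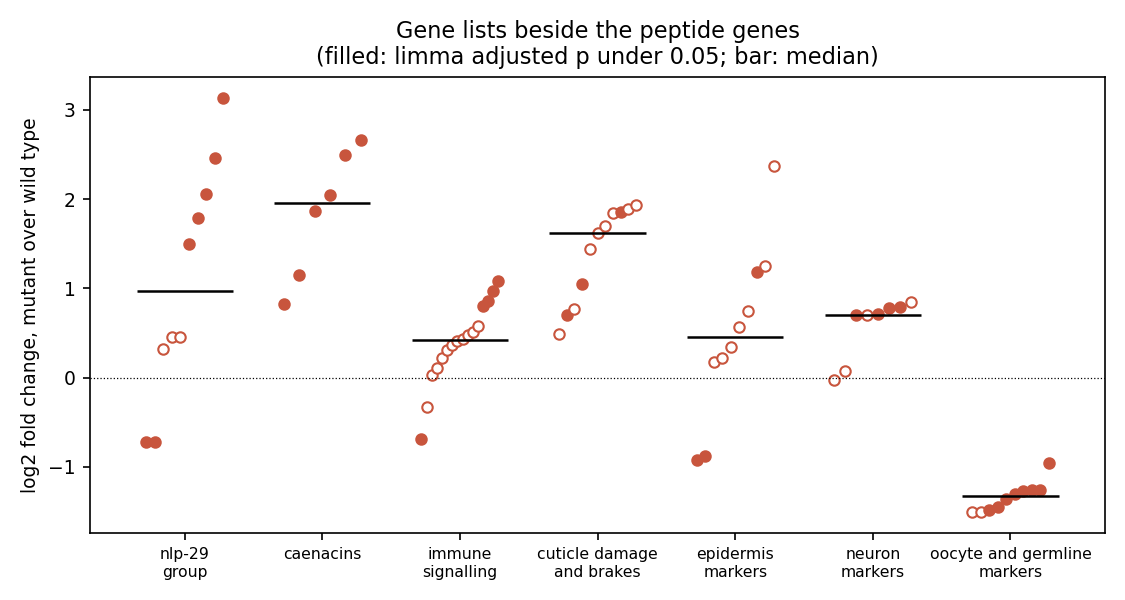
log2 fold change (mutant over wild type) of each tested gene in 7 lists, with a bar at the list's median and filled symbols where limma's adjusted p was under 0.05. The medians are 0.97 for the nlp-29 group, 1.96 for the caenacins, 0.42 for the signalling list, 1.62 for the cuticle damage list, 0.46 for epidermis markers, 0.71 for neuron markers and -1.33 for oocyte and germline markers.

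Markers of cell types moved in the same libraries, where 8.84% of all tested genes rose and 13.4% fell by limma. Of 10 epidermis markers all were read, *eff-1* rose, *lin-26* and *col-19* fell and 7 did not pass. Log2 fold changes were positive for 8 of the 10, up to 2.37 for *rol-6* (limma adjusted p = 0.103). The 8 include *che-14*, which passed the filter only with the mutant libraries. Their summed level ran from 3656 to 5065 CPM in N2 and from 2596 to 3610 CPM in the mutant, of which *col-19* alone made 2747 ± 313 and 1512 ± 302 CPM (SD, n = 3). Of 8 neuron markers 4 rose and none fell, with sums of 380 to 420 CPM in N2 and 519 to 630 CPM in the mutant. Of 10 oocyte and germline markers 8 fell and none rose, with sums of 3445 to 4486 CPM against 901 to 2810 CPM. Mutant library 3 lay nearest to wild type in the neuron and the oocyte and germline sums, but farthest from it in the epidermis sum. For every peptide gene that rose this library also lay nearest to wild type, but not for *nlp-24* and *nlp-26*. Of 8 sperm markers 4 rose and none fell, with sums of 135 to 205 CPM against 236 to 341 CPM. *spe-19*, which rose, and *spe-38*, which did not pass, entered the test only with the mutant libraries, so they add nothing to that count. None of 8 intestine markers (3901 to 4715 CPM against 4102 to 4544 CPM) and none of 7 body wall muscle markers (5738 to 17042 CPM against 8408 to 14756 CPM) was called by limma, edgeR or DESeq2, with 0 in each list at an unadjusted limma p under 0.05. No marker in these lists was at 0 in all libraries, and the part of these shifts in the values of the peptide genes was not tested.

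The 4 tested genes outside the group whose log2 values over the 6 libraries ran most like those of *nlp-29*, out of 11164 compared, were *F53E10.1*, *sbt-1*, *ncr-2* and *ztf-27*, with Pearson r of 0.997, 0.996, 0.996 and 0.994. Of these *ncr-2*, a homologue of the Niemann-Pick sterol transporter, rose by 1.34 (SE 0.30, limma adjusted p = 0.0337) and *sbt-1*, a neuroendocrine chaperone gene, by 0.79 (SE 0.21, limma adjusted p = 0.0346). *F53E10.1* and *ztf-27* had log2 fold changes of 0.73 and 0.50 and did not pass (limma adjusted p = 0.0515 and 0.119). Most like *nlp-24* were *Y71G10AR.4* and the glutathione S-transferase gene *gst-1*, with r of 0.992 and 0.991 and log2 fold changes of -0.27 and -0.31 (limma adjusted p = 0.296 and 0.242). These correlations describe 6 libraries in 2 groups and share their scaling.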

How the data were processed

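The authors deposited CPM and TPM per gene and library, per the file headers, and every column had an equal sum, so libraries had not been scaled to each other. Per the submitters' processing notes, which give neither role nor order, the tools were HISAT2 2.1.0, Trimmomatic 0.36, DESeq2 1.22.0 and featureCounts 1.6.3. Genome build, annotation and strand use were not given in the sources used here, and positions were taken from WBcel235, possibly another build. Members were matched by symbol, and all 10 WormBase IDs were in that annotation.

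The 13756 genes that reached 1 deposited CPM in 3 or more libraries were tested, after CPM were divided by TMM factors (0.813 to 1.21). limma 3.58.1 in R 4.3.3 was fitted to log2(CPM + 1) with group as the only term, mean-variance trend and robust moderation. Levels are mean ± SD over 3 libraries. In all 6 libraries 100% of nonzero CPM were whole multiples of 1 read within 0.01 reads. On these recovered reads edgeR 4.0.16 called 2823 genes and DESeq2 1.42.0 called 3745, as alternatives. The value of 3 reads was 0.197 to 0.571 CPM. P-values measure the spread between these libraries only.

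Same-numbered libraries of the groups deviated together for numbers 1 and 2 but not 3, so no pairing was used. Members, lists and tests were chosen with earlier results of these data known. Named were all members, *blmp-1*, *nlp-32*, up to 4 called genes per list by adjusted p, the tested neighbours of the cluster and the genes with the most similar profiles (mean log2 value of at least 2). The fit was also run on simulated counts in which libraries varied independently, unlike the libraries numbered 1 and 2 here. That run therefore does not bear on the calls. The series-wide matrix was left out because the single-library files hold the values needed.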

Additional observations from a re-analysis of the deposited data

How the results depend on the processing

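The 10 members kept their direction under all 18 alternatives tried. Against 3061 genes called in all, the deposited TPM gave 1914, no filter on low values 115, and removal of both libraries numbered 1 gave 124, while leaving out single libraries gave 34 to 4746. The 5 members called higher became 3 with no filter and 2 without both libraries numbered 1, and 0 to 6 with single libraries left out. The 2 called lower became 0 with library size alone, upper-quartile scaling, TPM, no filter, edgeR or without both libraries numbered 1, and 1 without ribosomal RNA genes or with a pseudocount of 0.1, and 0 to 1 with single libraries left out. Upward calls made up 39.7% of all, against 94.2% with library size alone, 60.8% with upper-quartile scaling and 83.5% with no filter. Over all genes the median change was 0.35 with library size alone and 0.18 with upper-quartile scaling, on the log2 scale. The deviations of wild-type and mutant libraries correlated at 0.355, 0.443 and -0.087 for numbers 1, 2 and 3, and libraries numbered 3 did not correlate best with each other. A replicate block gave 5877 calls with limma and 5512 with edgeR, and 5 members higher and 2 lower with both; *dpy-2* then had adjusted p-values of 0.190 and 0.196. Genes not called that changed sign were *blmp-1* (-0.23 without mutant library 1, up to 0.46), *grsp-1* (-0.029 with DESeq2, and -0.073, -0.27 and -0.45 without wild-type library 2, wild-type library 3 or mutant library 1, up to 1.15), and *Y71G10AR.4* and *gst-1* (0.057 and 0.019 with library size alone). The *nlp-28* to *nlp-27* ratio turned to -0.081 without wild-type library 1 and -0.087 without mutant library 3, and ran up to 0.39, in a set of ratio checks added after the data were seen. The cause of these changes was not tested. Few reads limit *nlp-34*, *nlp-30* and *nlp-25* in wild-type library 1, with 2, 3 and 13 reads.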
